A study of Mus musculus with 6 samples.

Results

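Among the resident peritoneal cells profiled by droplet single-cell RNA sequencing, 84 of 7665 kept cells (1.10%, exact binomial 95% interval 0.875–1.36%) passed a transcript gate for cytotoxic lymphocytes. A member had at least 3 unique molecular identifiers (UMIs, single captured transcripts) summed over *Klrd1*, *Nkg7*, *Gzma* and *Klrk1*, at most 2 over the B cell genes *Cd79a* and *Cd79b*, and 0 over the macrophage (MΦ) genes *Csf1r* and *Adgre1*. The members were chosen on these measured values, so the levels of the gate genes describe the choice. By the sum of *Cd3d*, *Cd3e* and *Cd3g*, subunits of the T cell receptor complex, 33 members had no UMI (Cd3-zero), 47 had 2 or more (Cd3-positive) and 4 had 1.

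The cells came from young adult *Mertk*+/+ mice (WT) and *Mertk*-/- mice (MerKD), both labelled C57BL/6 and, by the methods, of C57BL/6J origin or backcrossed to it. MerKD mice lack functional MerTK, an efferocytic receptor, in all cells. For each genotype, lavage cells that stuck to the plate were given a media change as control, or were co-cultured for 2 h or 6 h with apoptotic cells, which were UV-irradiated Jurkat cells, a human T cell line that carried GFP. Each of the 6 groups had 1 library, made from pooled animals, and the library numbers in the cell barcodes were not matched to a group in the labels. No genotype or time point was therefore compared. The labels call the cells peritoneal MΦs, so the lymphocytes described here are those left on the plate after non-adherent cells were rinsed off.

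Natural killer (NK) cells are innate lymphocytes that kill stressed or infected cells without a rearranged antigen receptor, by releasing perforin and granzymes. They read target cells through germline-encoded lectin-like receptors, of which the Ly49 family (*Klra* genes) and the NKG2 family bind MHC class I or related ligands, and they pass activating signals through the adaptors DAP12 (*Tyrobp*), DAP10 (*Hcst*) and the Fc receptor gamma chain (*Fcer1g*). Some CD8 T cells and NKT cells switch on parts of the same programme beside their T cell receptor.

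Depth was between 4234786 and 10287079 UMIs per library, and 28 barcode sequences occurred in more than 1 library, none of them a member's. The 84 members held 265712 UMIs in all, with a median of 2484.5 UMIs and 1141.5 genes per cell, against a median of 4378 UMIs over all kept cells. Median depth was 2343 UMIs in Cd3-zero and 2623 UMIs in Cd3-positive members. Levels are given as CPM, the UMIs of a gene in 1000000 UMIs summed over the cells of a group, ratios are log2 ratios of CPM, and all intervals cover counting error only. A gene was counted as higher or lower at 2-fold or more, among genes with at least 30 UMIs over both groups, and no p-value was computed because cells are not replicates.

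Members were found under all 6 library numbers. They numbered 19, 18, 24, 12, 9 and 2 in libraries 1 to 6, which was 1.18%, 1.41%, 2.24%, 0.844%, 0.944% and 0.149% of the kept cells. Library 3 had the highest share and library 6 the lowest, with intervals (1.44–3.32% and 0.0181–0.539%) that did not overlap. The gate depends on depth, and the median UMIs of kept cells ran from 2783 in library 6 to 5794 in library 1. With the gate sum counted after thinning each cell to 1500 UMIs, the shares were 0.684%, 0.712%, 1.68%, 0.145%, 0.336% and 0.176%, so library 3 stayed highest and library 4 became lowest. Set against T cells alone, the members were between 6.06% (library 6) and 17.1% (library 4) of the members and T cells together. Cd3-zero members were found in 5 libraries (8, 6, 10, 4 and 5 cells in libraries 1 to 5) and 0 of the 2 members of library 6.

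**Figure D1:**
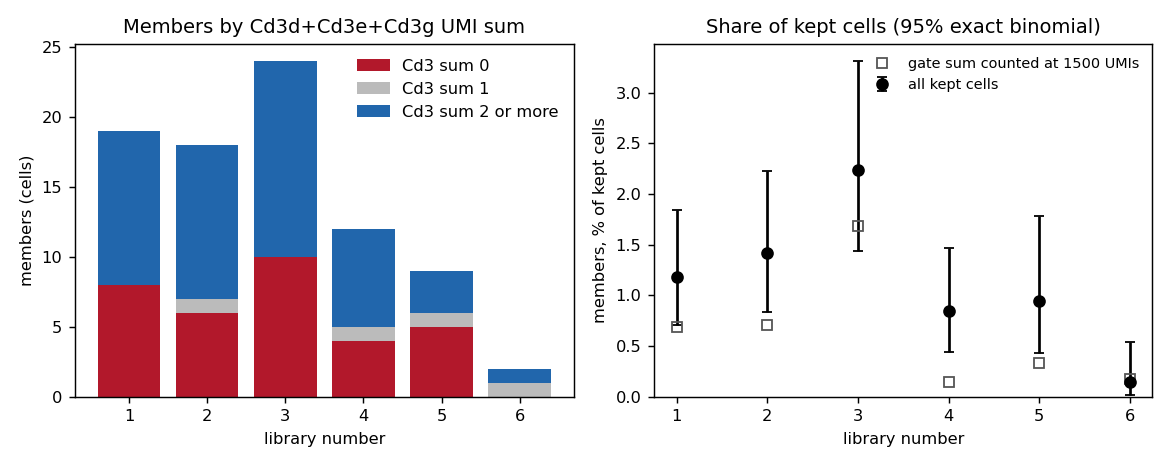
Members per library number, stacked by the sum of Cd3d, Cd3e and Cd3g UMIs (left, cells), and as a percentage of kept cells (right; points with exact binomial 95% intervals, squares with the gate sum counted at 1500 UMIs per cell). Library 3 holds 24 members and library 6 holds 2.

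The name of an NK-like population was carried by the Cd3-zero members. Of the 6 NK and cytotoxic markers that the gate did not use (*Eomes*, *Ncr1*, *Klrb1c*, *Prf1*, *Tbx21* and *Il2rb*), 5 were seen in at least 10% of Cd3-zero members, at a summed level of 1829 CPM (1063–3844 CPM over 5 libraries). Cd3-positive members had 4 of the 6 and 436 CPM (0–574 CPM over 6 libraries), and *Ncr1*, the NK activating receptor NKp46, was at 0. NKT markers were seen in few members. *Zbtb16*, the transcription factor PLZF of NKT cells, or the segments *Trav11* and *Traj18* of their invariant receptor, were seen in 4 of 47 Cd3-positive members (8.51%, 2.37–20.4%), 1 of 33 Cd3-zero members and 4 of 455 T cells with the same B cell and MΦ limits (0.879%, 0.240–2.24%). Markers of neutrophils were at 0 in both classes. Of the mast cell and basophil list, 5 of 6 markers were at 0 in both, and the 15 UMIs in Cd3-zero members were all of *Kit*, a stem cell factor receptor.

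Just outside the gate, 59 cells that met the other limits had a gate sum of 2, of which 28.8% had no Cd3 UMI, 49.2% had *Ccl5*, 27.1% had *Tyrobp* and 0 had *Eomes*. Just inside it, 25 members had a sum of 3, with 28.0%, 72.0%, 40.0% and 8% for the same 4 features, and at a sum of 4 the 19 members had 10.5%, 78.9%, 10.5% and 5.26%. The shares without Cd3 and with *Tyrobp* or *Eomes* thus did not rise steadily with the sum. Cells with 10 or more *Cd74* UMIs were 17 of the 59 at a sum of 2. They were 5 of the 25 at a sum of 3 and 1 of the 19 at a sum of 4, so the steps also differ in these cells. Those inside the gate belong to the *Cd74*-rich members described at the end. The median gate sum was 7 UMIs in Cd3-zero and 4 UMIs in Cd3-positive members, and the highest were 74 and 20 UMIs. The Cd3-zero share of members was 39.3% (33 of 84), and 42.3% (33 of 78) when members were thinned to 1500 UMIs, against 35.9% (28 of 78) in the same cells before thinning.

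**Figure D2:**
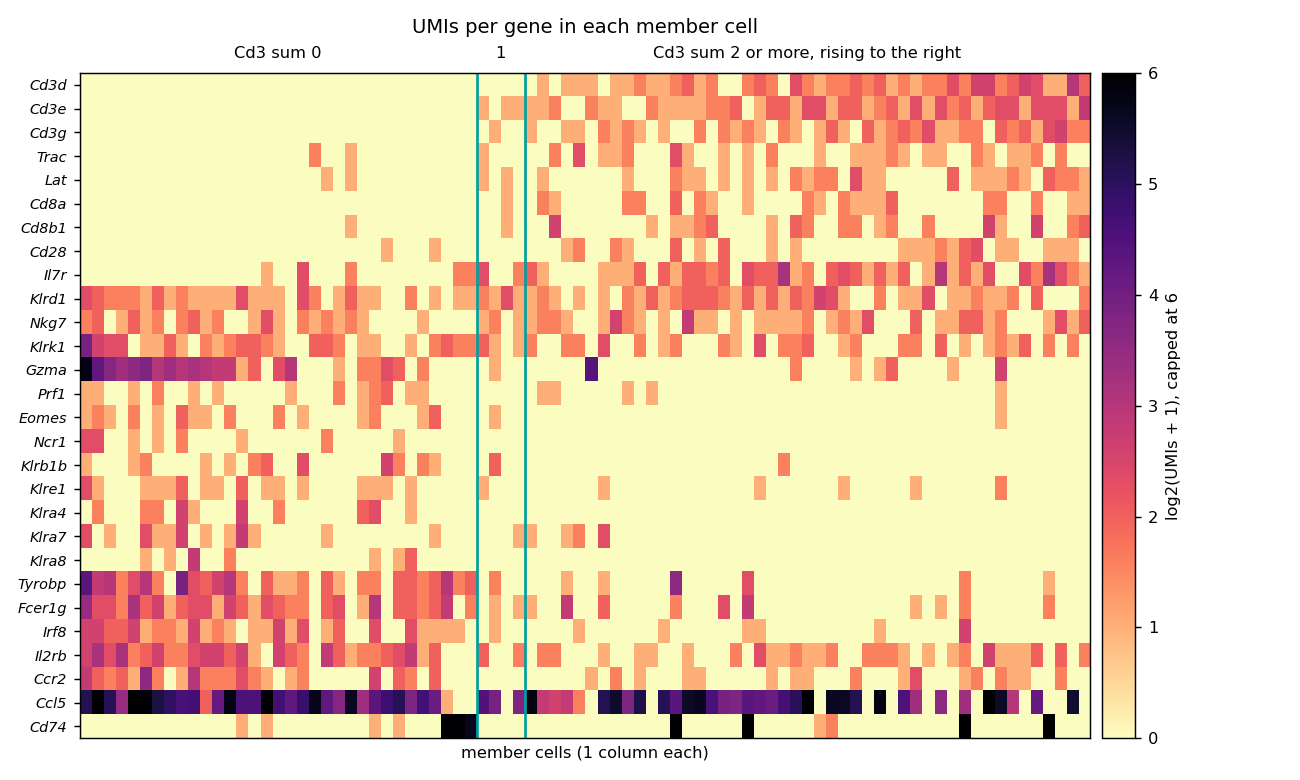
Each column is 1 of the 84 members and each row a gene, coloured by log2(UMIs + 1) and capped at 6. Columns are ordered by the Cd3 sum, with lines around the 4 members with a sum of 1. Gzma, Eomes, Tyrobp and the Klra rows fill at left and Trac, Lat, Cd8a, Cd28 and Il7r at right, while Klrd1, Nkg7 and Ccl5 run across. The dark Cd74 columns are 7 cells described separately.

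The members were first set against T cells, which are 639 kept cells with a Cd3 sum of 2 or more and a gate sum of 2 or fewer. Relative to these T cells, the members carried more NK receptor, granule and cytokine receptor transcripts, and more of the chemokine *Ccl5*. The reference mattered on both sides. Of the 639 T cells, 184 failed the B cell and MΦ limits that the members had to meet. All T cells held 3241835 UMIs, and the 455 with the same limits held 1353069. These 455 cells are therefore given beside all T cells. Levels and ratios of single genes in this comparison are against all 639 T cells unless stated. Of 8359 genes with enough UMIs, 875 (10.5%) were higher and 963 (11.5%) lower in members. Against T cells with the same limits, 531 of 5653 (9.39%) were higher and 308 (5.45%) lower. Of these, 348 and 205 had also been called against all T cells. The T cell receptor list went from 4 higher and 1 lower of 18 genes to 0 and 2 of 18.

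Of the killer lectin-like and NK receptor list, 10 of 13 genes with enough UMIs were higher in members and 1 was lower, with a median log2 ratio of 2.82 against 0.0955 over all genes. Against T cells with the same limits the list gave 8 of 10 higher and 1 lower. *Klrd1* and *Klrk1* are gate genes and had to be higher, and without them the counts were 8 of 11 and 6 of 8. Outside the gate genes, the largest ratios of the list were those of the lectin-like receptors *Klrb1b* and *Klre1* (log2 6.93 each). *Klrb1b* was seen in 14 members and 3 T cells, and *Klre1* in 22 members and 2 T cells. *Klrb1b* had too few UMIs for a ratio without library 1, 3 or 5, and *Klre1* without library 1, 2 or 3. *Klrc1*, the NKG2A chain that pairs with CD94, was higher by 4.12. Of the Ly49 genes, *Klra7* (Ly49G) alone had enough UMIs, at 135 CPM in members and 3.09 CPM in T cells. Granule genes were higher in 11 of 16 cases and lower in 1, with a median of 1.43, and in 11 of 14 with none lower against T cells with the same limits. Without the gate genes *Gzma* and *Nkg7*, the counts were 9 of 14 and 9 of 12. *Prf1*, the pore former perforin, was at 86.6 CPM in members and 12.7 CPM in T cells, and the Fas ligand gene *Fasl* was higher by 2.93 on the log2 scale.

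*Ccl5*, a chemokine stored by memory and cytotoxic lymphocytes, stood at 7346 CPM in 82.1% of members and at 521 CPM in 17.5% of T cells. B cells, which do not make it as a rule, had a *Ccl5* UMI in 0.714% of 3082 cells and MΦs in 1.91% of 1937 cells, at median depths of 5172.5 and 5118 UMIs. Cytokine receptors were higher in 8 of 14 genes and lower in 1, or 6 and 1 of 13 against T cells with the same limits. Among them were *Il2rb* (log2 2.24), the beta chain that binds IL-2 and IL-15, *Il18rap* (log2 3.50) and *Il12rb2* (log2 3.05), chains of the IL-18 and IL-12 receptors. The single lower gene was *Il21r* (log2 −1.05, and −0.69 without library 3 or −0.96 without library 4). Without the *Cd74*-rich members the list gave 8 higher and 3 lower of 14 against all T cells. Of the transcription factors, 6 of 22 were higher and none lower, or 5 and 1 of 16 with the same limits. Against all T cells without the *Cd74*-rich members, 6 were higher and 2 lower of 22. *Eomes*, a T-box factor of NK and memory CD8 cells, had the largest ratio (log2 5.72). It had too few UMIs for a ratio against T cells with the same limits, and without library 1, 2, 3 or 4.

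Several lists did not move together. The naive lymphocyte genes gave 0 higher and 2 lower of 12 (median log2 ratio −0.12), and 0 and 4 of 12 against T cells with the same limits (median −0.72). Early activation genes gave 1 higher and 5 lower of 16, but 4 and 0 of 13 with the same limits. Without the *Cd74*-rich members these counts were 1 and 7 of 16, and 2 and 1 of 13. Interferon-stimulated genes gave 1 higher and 3 lower of 14 (0 and 2 of 12 with the same limits), and homing genes 5 and 1 of 17 (6 and 1 of 16). Of the 10 genes with the lowest ratios, *Slpi*, *Serpinb2*, *Apoe*, *Arg1*, *Saa3*, *Cxcl2* and *Prg4* are known from myeloid cells and *Igkc* and *Iglc2* are immunoglobulin light chain genes. The 7 myeloid genes held 0–5 UMIs each in members and 1–21 in T cells with the same limits, too few for a ratio between them. Their low ratios were therefore measured only against all T cells. The remaining gene, *A530040E14Rik*, was at 3.76 CPM in members and 149 CPM in T cells.

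Of the 10 genes with the highest ratios outside the gate genes, 4 were the receptors and factors *Klrb1b*, *Klre1*, *Eomes* and *Klra7*. Another 4 are genes of dividing cells, *Ube2c* (log2 4.61), *Stmn1* (log2 4.49), *Mki67* (log2 4.28) and *Hist1h2ap* (log2 4.18), and they rested on 2, 7, 6 and 4 members. *Anxa1* (annexin A1) was at 117 CPM in 20 members and 6.48 CPM in 14 T cells. The chemokine *Ccl22* had its UMIs in 3 members, all of them *Cd74*-rich.

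Within the members, Cd3-zero and Cd3-positive cells differed in receptors, adaptors and some granule genes. Cd3-zero members were higher for *Tyrobp*, *Fcer1g*, *Irf8*, *Il2rb*, *Ccr2* and the gate gene *Gzma*. Cd3-positive members were higher for CD8 genes, *Il7r*, *Lat* and *S1pr1*. Of 1089 genes with enough UMIs, 77 (7.07%) were higher and 76 (6.98%) lower in Cd3-zero members, with a median log2 ratio of 0.0447. Without the 7 members rich in *Cd74*, the counts were 54 and 50 of 827. Without library 1 the higher count was 43, and without library 3 the lower count was 44.

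Granule genes were split within the list. *Gzma*, the serine protease granzyme A and a gate gene, was at 2014 CPM in Cd3-zero members, with a UMI in 23 of 33 cells. Its lowest, median and highest levels over 5 libraries were 1758, 1913 and 2684 CPM, and 1 cell of library 1 held 54 of the 196 UMIs. In Cd3-positive members it was at 205 CPM, in 7 of 47 cells, with 0, 117 and 491 CPM over 6 libraries, and 1 cell held 20 of the 33 UMIs. The ranges of the libraries did not overlap, and the log2 ratio was 3.29 (2.76–3.87), or 4.27 without library 1. The gate counted *Gzma*, so these values also describe how the members were chosen. *Nkg7*, a granule membrane protein and also a gate gene, was level between the classes, at 370 CPM in 20 of 33 and 386 CPM in 33 of 47 cells (log2 −0.06, −0.70 to 0.55). Of the 5 granule genes with enough UMIs, 3 were higher and 0 lower in Cd3-zero members. Without the gate genes *Gzma* and *Nkg7* the count was 2 of 3. The 2 were *Ctsw* (log2 1.41), a protease of cytotoxic cells, and *Serpinb6b* (log2 1.95), a serpin. Without the *Cd74*-rich members the count over the whole list was 2 of 4, with a median of 0.64 in place of 1.41. *Serpinb6b* then had 21 and 6 UMIs, short of the minimum. *Prf1* fell short of 30 UMIs, with 18 UMIs in 13 of 33 and 5 UMIs in 5 of 47 cells. *Gzmb* gave 4 UMIs in each class and *Gzmc* none.

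The promoters of these contrasted granule genes are shown because *Gzma* differed between the classes and *Nkg7* did not. Each window runs from 250 bases before to 50 bases after the transcript start and was read from the GRCm38 genome with GENCODE vM21 starts. Capitals mark the 7-letter T-box motif TCACACC or its reverse complement, searched on both strands. The *Nkg7* window is chr7:43436888-43437187 on the plus strand, and the *Gzma* window is chr13:113100932-113101231 on the minus strand, written 5′ to 3′.
Nkg7: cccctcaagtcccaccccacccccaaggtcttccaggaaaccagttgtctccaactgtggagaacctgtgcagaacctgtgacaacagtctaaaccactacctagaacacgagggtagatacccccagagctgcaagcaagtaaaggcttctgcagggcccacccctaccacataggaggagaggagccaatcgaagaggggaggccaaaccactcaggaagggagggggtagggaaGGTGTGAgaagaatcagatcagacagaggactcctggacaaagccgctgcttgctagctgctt
Gzma: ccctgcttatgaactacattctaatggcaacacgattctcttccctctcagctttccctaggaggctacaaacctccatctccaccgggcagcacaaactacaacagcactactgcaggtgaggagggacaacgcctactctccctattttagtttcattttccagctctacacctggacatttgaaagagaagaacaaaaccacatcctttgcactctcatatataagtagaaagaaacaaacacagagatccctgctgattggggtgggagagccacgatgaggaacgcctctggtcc
The *Nkg7* window held the reverse complement 13 bases before the start, and the *Gzma* window held neither form. The *Nkg7* window is set on an inner transcript start, downstream of the annotated gene start at chr7:43437073. The *Gzma* window is set on the outer end of its gene, chr13:113100981. A window of the same size at the *Nkg7* gene start would end before the motif, so the contrast depends on the start used. The motif stood in 7 of 61 windows (11.5%) of the NK receptor, Ly49 and granule lists, against 1307 of 32851 windows (3.98%) overall. The 61 windows belong to 49 genes, *Nkg7* among those with the motif. For genes higher in Cd3-zero members the motif stood in 3 of 65 windows (4.62%), and for genes lower in 1 of 63 (1.59%). Over all genes measured in that comparison it stood in 33 of 991 windows (3.33%). These are matches of letters and not binding sites.

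Among lectin-like and NK receptors, 3 of 6 genes with enough UMIs were higher and 1 lower in Cd3-zero members, with a median of 0.88, and 2 of the 6, *Klrd1* and *Klrk1*, are gate genes. *Klrd1*, the CD94 chain that pairs with NKG2 proteins, was at 493 CPM in 27 of 33 Cd3-zero and 442 CPM in 36 of 47 Cd3-positive cells, a log2 ratio of 0.16 (−0.40 to 0.71). *Klrk1*, the activating receptor NKG2D, was at 688 and 318 CPM (log2 1.12, and 0.90 without library 1). *Tigit*, an inhibitory receptor for nectins, was seen in 19 of 33 and 7 of 47 cells. Its ratio (log2 2.25, 1.11–3.53) was in the same direction in all 5 libraries that held both classes. Without library 1, 2 or 3, *Tigit* had too few UMIs for a ratio. The gene that went against the list was *Ly6c2* (log2 −1.86), a marker of memory CD8 T cells. Receptors with fewer UMIs also differed in where they were seen. *Ncr1* had 16 UMIs in 8 Cd3-zero cells and 0 in the 47 Cd3-positive ones. A count of 0 in these 47 cells leaves room, by the exact binomial interval, for a UMI in up to 7.55% of cells. *Klrb1b* was in 12 and 1 cells and *Klre1* in 16 and 5 cells, whereas *Cd226*, which competes with *Tigit* for ligands, was in 0 and 7 cells. At least 1 of *Ncr1*, *Eomes*, *Klrb1c* and *Klre1* was seen in 26 of 33 Cd3-zero (78.8%), 10 of 47 Cd3-positive (21.3%) and 3 of 455 T cells with the same limits (0.659%).

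The Ly49 genes lie with *Klrd1* and *Klrk1* in the NK gene complex, where 28 listed genes span chr6:128609227-131247362 (GRCm38) and 22 of them had a UMI in members. A Ly49 gene was seen in 22 of 33 Cd3-zero members (66.7%, 48.2–82.0%), 10 of 47 Cd3-positive members (21.3%, 10.7–35.7%) and 6 of 455 T cells with the same limits (1.32%). Cd3-zero members carried 0, 1, 2, 3 or 4 of these genes in 11, 7, 7, 6 and 2 cells. Cd3-positive members carried 0, 1, 2 or 3 in 37, 8, 1 and 1 cells, so most cells with several Ly49 genes were Cd3-zero. The activating receptors *Klra4* (Ly49D) and *Klra8* (Ly49H) had 27 UMIs in 10 and 15 UMIs in 7 Cd3-zero cells and 0 in Cd3-positive cells. Either was seen in 13 of 33 Cd3-zero members (39.4%). The inhibitory *Klra7* was in 12 of 33 and 4 of 47 cells (log2 2.48). *Klra1* (Ly49A), also inhibitory, went the other way, with 0 UMIs in Cd3-zero and 11 UMIs in 5 Cd3-positive cells.

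Ly49 genes resemble each other, which bears on their counts. Of all windows of 98 bases, the length of the transcript read, 14.7% of those in *Klra8* also occurred in another Ly49 gene, chiefly *Klra14-ps*, against 2.06% in *Klra7* and 0 in *Klra4* and *Klra1*. *Klra8* and *Klra14-ps* are thus less certain than the rest.

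**Figure D3:**
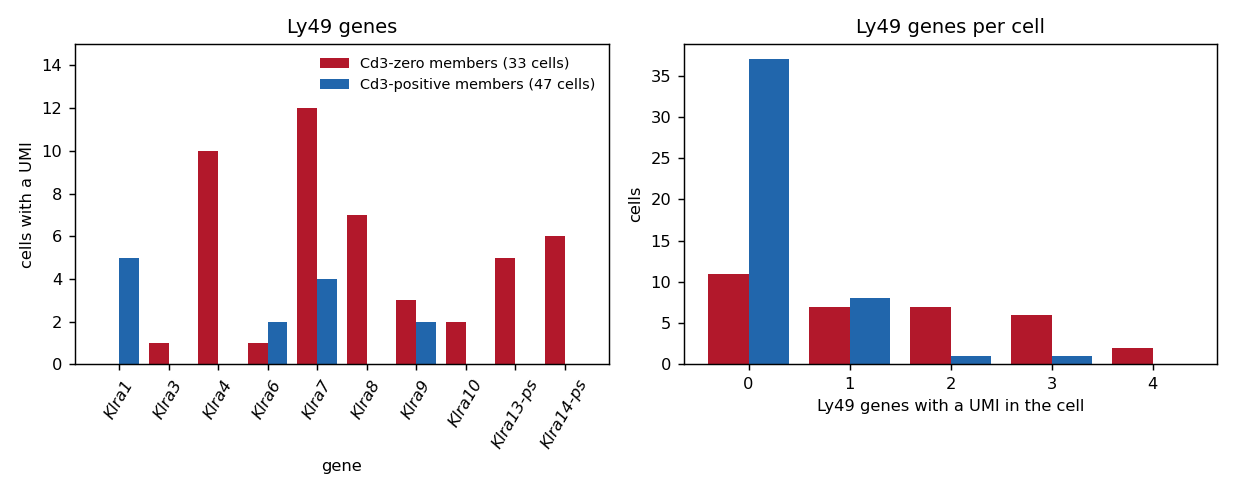
Cells with a UMI of each Ly49 gene (left) and the number of Ly49 genes with a UMI per cell (right), in 33 Cd3-zero and 47 Cd3-positive members. Klra4 and Klra8 have no UMI in Cd3-positive members and Klra1 none in Cd3-zero members.

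The adaptors, which the gate did not use, also separated the classes. *Tyrobp* (DAP12, the partner of *Klra4* and *Klra8*) was at 1233 CPM in 28 of 33 Cd3-zero cells, with 576, 1040 and 1445 CPM as the lowest, median and highest of 5 libraries. In Cd3-positive members it was at 125 CPM in 6 of 47 cells, with 0, 21.9 and 313 CPM over 6 libraries. The library ranges did not overlap, and the log2 ratio of 3.31 became 6.37 without the *Cd74*-rich members and 4.99 without library 3. *Fcer1g* was at 1058 CPM in 29 of 33 and 174 CPM in 10 of 47 cells (log2 2.60, 1.99–3.26), again without overlap between libraries (693–1596 and 0–481 CPM). Both adaptors together were seen in 27 of 33 Cd3-zero members (81.8%), 6 of 47 Cd3-positive members (12.8%) and 4 of 455 T cells with the same limits (0.879%). MΦs also express them, with *Tyrobp* in 96.7% of cells. The 30 Cd3-zero members without high *Cd74* held 1 UMI over the 6 MΦ markers that the gate did not use, and *Csf1r* and *Adgre1* were at 0 by the choice of members. *Hcst* (DAP10), the partner of NKG2D, was level at 534 and 654 CPM (log2 −0.29).

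T cell receptor adaptors pointed the other way within the same list, which had 5 genes higher and 4 lower of 13. *Lat*, the scaffold phosphorylated below the T cell receptor, was in 2 of 33 Cd3-zero and 25 of 47 Cd3-positive cells (log2 −3.56), and the kinase *Lck* (log2 −1.47) and the zeta chain *Cd247* (log2 −1.34) were lower. *Cd247* had too few UMIs for a ratio without library 1, 2, 3 or 5. The kinase *Fyn* (log2 1.56) and the adaptor *Sh2d2a* (log2 1.61) were higher in Cd3-zero members. *Fyn* and *Lat* had too few UMIs for a ratio without library 1, and *Fyn* also without the *Cd74*-rich members. Without those members the list gave 3 higher and 4 lower of 10, with a median of 0.11 in place of 0.59. *AW112010*, a transcript annotated as a lincRNA, was at 6607 CPM in Cd3-zero and 928 CPM in Cd3-positive members, although 30 of 33 and 43 of 47 cells had a UMI.

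**Figure D4:**
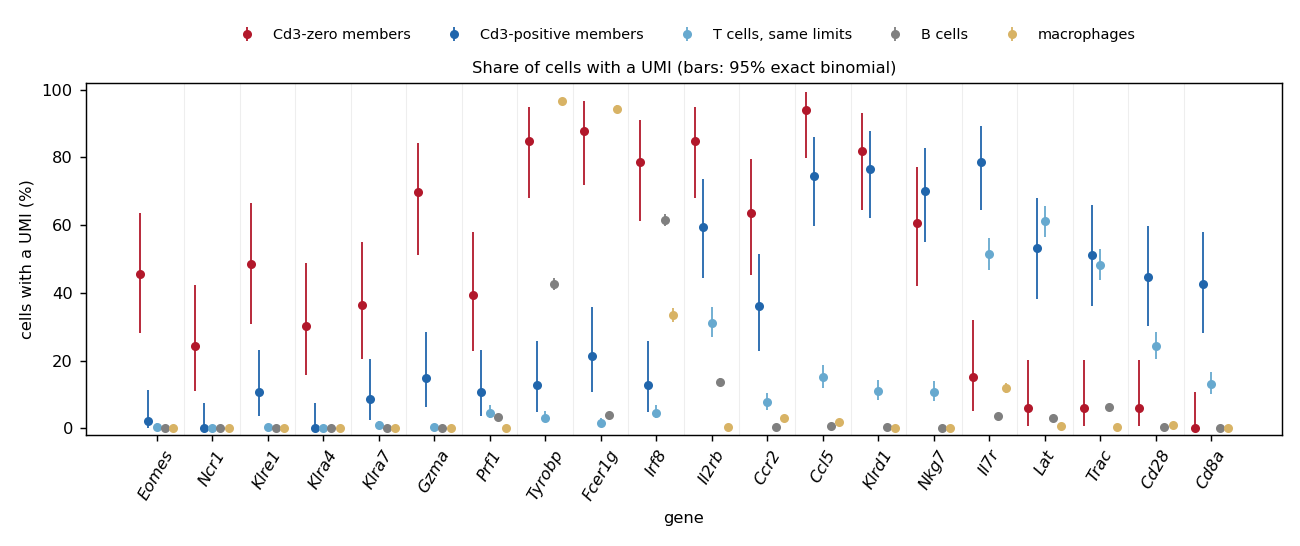
Percentage of cells with a UMI of each gene (points with exact binomial 95% intervals) in Cd3-zero members, Cd3-positive members, T cells with the same limits, B cells and macrophages. Tyrobp is seen in 28 of 33 Cd3-zero and 6 of 47 Cd3-positive members, and Klrd1 and Nkg7 have overlapping intervals in both.

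Transcription factors gave 1 higher and 2 lower of 8. *Irf8*, an interferon regulatory factor, was at 658 CPM in 26 of 33 Cd3-zero and 62.3 CPM in 6 of 47 Cd3-positive cells (log2 3.40, 2.43–4.53), and it was also seen in 61.4% of B cells. *Eomes* had too few UMIs for the ratio, with 24 UMIs in 15 of 33 cells and 1 UMI in 1 of 47, and thinned to 1500 UMIs it was in 10 of 28 and 1 of 47 cells. *Tbx21*, the related T-box factor T-bet, was in 3 and 7 cells. *Klf2* (log2 −1.83) and *Lef1* (log2 −1.96), factors of quiescent and naive T cells, were the lower pair. *Id2*, needed for NK cell development, was within 2-fold at 843 and 616 CPM.

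Receptors for cytokines and chemokines separated the classes by single genes. *Il2rb* was at 1058 CPM in 28 of 33 Cd3-zero and 305 CPM in 28 of 47 Cd3-positive cells (log2 1.79, 1.29–2.32), with 638, 1386 and 1959 CPM against 0, 312 and 513 CPM as the lowest, median and highest of the libraries. *Il7r*, the IL-7 receptor of naive and memory T cells, was the reverse, at 113 CPM in 5 of 33 and 635 CPM in 37 of 47 cells (log2 −2.49). *Ccr2* (log2 2.10), a chemokine receptor, and the integrin *Itgb1* (log2 1.26, and 0.72 without library 3) were higher in Cd3-zero members. *S1pr1* (log2 −2.74), the receptor for exit from lymphoid tissue, and *Itgb7* (log2 −2.03) were lower. *Itgb7* had too few UMIs for a ratio without the *Cd74*-rich members, or without library 1, 2, 3 or 4. *Cxcr6* was in 0 of 33 and 11 of 47 cells. *Ccl5* was at 9495 CPM in 31 of 33 and 6102 CPM in 35 of 47 cells, a ratio within 2-fold (log2 0.64), and both were above the 731 CPM of T cells with the same limits.

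The mature NK cell genes *Cx3cr1* and *S1pr5* had 0 UMIs in either class. By the exact binomial interval this allows a UMI of each in up to 10.6% of Cd3-zero members. It sets no limit on cells that express them. *Itga2* (the DX5 antigen) was in 3 Cd3-zero cells and *Itgam* (CD11b) in 4, and *Itga1* and *Cxcr6*, used to mark ILC1s, in 0. Effector cytokines were nearly absent, with 2 UMIs of *Ifng* in all 84 members and 0 of *Il4*, *Il13* and *Il17a*. The receptor *Mertk* and its relatives *Axl* and *Tyro3*, with the ligands *Gas6* and *Pros1*, also had 0 UMIs in the 84 members. There 3 cells would be 3.57%, so a low share could be missed. *Mertk* was seen in 11.9% of MΦs.

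The Cd3-positive members had the traits of CD8 T cells in part. *Cd8a* or *Cd8b1* was seen in 25 of 47 Cd3-positive members (53.2%, 38.1–67.9%), 116 of 455 T cells with the same limits (25.5%) and 1 of 33 Cd3-zero members. *Cd4* was in 3 of 47, 113 of 455 and 0 of 33 cells. Of the T cell receptor list, 9 of 12 genes were lower in Cd3-zero members and none higher, but 3 of the 9 are the *Cd3* genes of the split. The others included *Trac* (log2 −2.90), *Trbc2* (log2 −1.92) and *Cd28* (log2 −3.32), a co-stimulatory receptor. *Cd28* had too few UMIs for a ratio without the *Cd74*-rich members, or without library 1, 3 or 4, and *Trac* without library 3. *Trbc1*, the other beta constant gene, was level at 288 and 249 CPM, in 17 of 33 Cd3-zero cells. Naive lymphocyte genes gave 0 higher and 4 lower of 9, and the interferon-stimulated *Ly6a* (log2 −3.13) and *Ifi27l2a* (log2 −2.83) were also on the Cd3-positive side.

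Because the libraries were primed for 5′ ends, V segments of the T cell receptor were counted too. An alpha or beta V segment was seen in 42 of 47 Cd3-positive members (89.4%, 76.9–96.5%), 345 of 455 T cells with the same limits (75.8%) and 2 of 33 Cd3-zero members (6.06%). The 47 cells carried 17 *Trbv* and 16 *Trav* segments, and the most shared were in 7 and 2 cells. *Trbv12-1* (chr6:41113550-41114067, plus strand) was the one in 7 members, all of them Cd3-positive, and in 9 of the 639 T cells. A delta V segment was instead seen in 11 of 33 Cd3-zero members (33.3%, 18.0–51.8%). It was seen in 3 of 47 Cd3-positive members (6.38%) and 42 of 455 T cells with the same limits (9.23%). *Trdv4* (chr14:54074905-54075515, plus strand) was in 7 Cd3-zero cells and 1 Cd3-positive cell, and *Trdv2-2* in 4 and 0. *Trdc*, the delta constant gene, was in 4 of 33 and 2 of 47 cells.

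**Figure D5:**
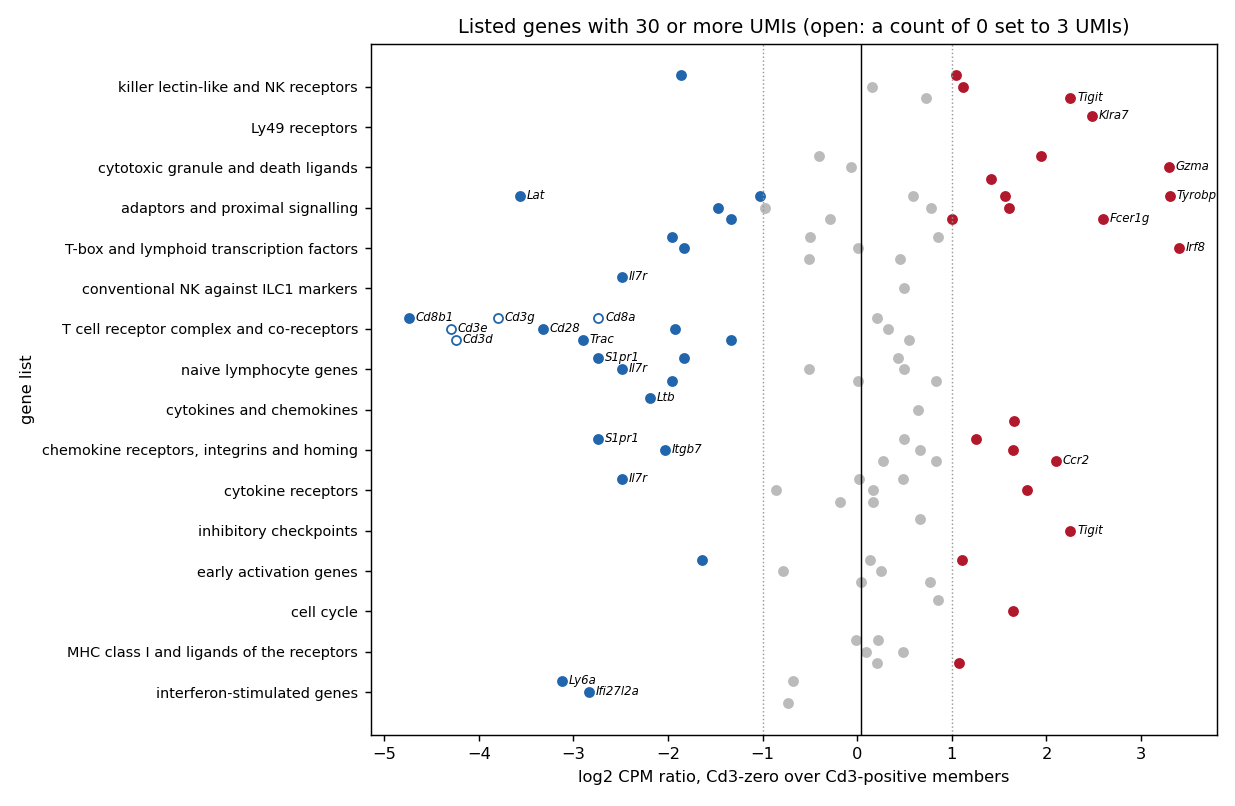
Log2 CPM ratio of Cd3-zero over Cd3-positive members for each listed gene with at least 30 UMIs, by gene list. The solid line is the median of all genes (0.0447) and the dotted lines mark 2-fold. Open points are genes with a count of 0, set to 3 UMIs. Of the 12 T cell receptor genes 9 lie left of −1. None of the 5 granule genes does, nor does Klra7, the 1 Ly49 gene with enough UMIs.

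A small set of members stood apart within both classes. These 7 cells (3 Cd3-zero, 4 Cd3-positive) had 51–286 UMIs of *Cd74*, the MHC class II invariant chain, and all other members had at most 2. They held 18.8% of the members' UMIs, with a median of 7687 UMIs, and 4 came from library 1, 2 from library 3 and 1 from library 5. None was called a doublet. None of the 7 had *Gzma*, and *Ncr1*, *Eomes*, *Klrb1c* and *Klre1* were likewise at 0, so they had entered the gate on *Klrd1*, *Klrk1* and *Nkg7* sums of 3–5 UMIs. The 4 cells of library 1 had 7–28 UMIs of *Ccr7*, a receptor for homing to lymph nodes, and the 2 of library 3 had 50 and 20 UMIs of the myeloid gene *Lyz2* and 66 and 77 UMIs of the chemokine *Ccl9*. Leaving them out also changed list counts of members against all T cells. Granule genes became 10 higher and 2 lower of 16. Homing genes became 5 and 3 of 17, and T cell receptor genes 7 and 2 of 18. The 7 cells also moved several ratios between Cd3-zero and Cd3-positive members. *Ccr7* went from 40 UMIs in Cd3-zero and 37 UMIs in Cd3-positive members to 0 and 18 without them. *Ccl9*, *Ccl24*, *Wfdc17*, *Lyz2*, *Fn1* and *Retnla*, which had been among the 10 lowest, were left with 0–2 UMIs in each class, so no ratio remained. *Ctsb*, a lysosomal protease with the lowest ratio (log2 −5.16), was left with 1 and 9 UMIs, while *Gm8369* (log2 −3.63), a gene of no stated function, had 2 UMIs in 2 Cd3-zero and 41 UMIs in 25 Cd3-positive cells and kept 2 and 39. *Klrk1* came just within 2-fold (log2 0.995). Of the 10 highest, *Il1b*, *Marcksl1* and *Ccl22* had no UMI in the other members of either class.

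*Mki67* or *Top2a*, which mark dividing cells, had a UMI in 8 of 84 members (9.52%, 4.202–17.9%), of which 6 had 1 or 2 UMIs. The share was 21 of 639 in T cells (3.29%), 4 of 455 in T cells with the same limits (0.879%, 0.240–2.24%) and 8.67% in MΦs. The cell cycle list gave 4 higher and 1 lower of 8 in members against T cells, and 1 and 0 of 3 with the same limits. A Cd3-zero cell of library 1 with 13164 UMIs had 15 UMIs of *Mki67*, 12 of *Top2a* and 40 of the histone gene *Hist1h2ap*, and a Cd3-positive cell of library 4 had 7 of *Mki67* and 6 of *Top2a*. *Hist1h2ap* thus led the list of genes higher in Cd3-zero members with 42 UMIs in 3 cells, and of the 34 UMIs of *Hist1h1e* (log2 2.81), another histone gene, 28 lay in 1 cell. *H2afz*, a histone variant raised in dividing cells, was seen more widely, at 1983 CPM in 31 of 33 and 635 CPM in 32 of 47 cells (log2 1.64).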

How the data were processed

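Resident peritoneal cells of 6 libraries were measured by droplet 5′ single-cell RNA-seq. The authors aligned reads to the human and mouse (mm10) genomes with STAR through Cell Ranger, counted mouse genes and deposited raw UMI counts per gene and cell, with no normalization. The submitters' processing notes name Cell Ranger 2.2 and Seurat 3.0. The annotation is not given in the sources used here.

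Of 7760 barcodes (40172124 UMIs, 55538 features), 7665 with at least 500 genes and at most 10% mitochondrial UMIs were kept. Scrublet (scanpy 1.11.5, each library apart, expected rate 0.01) marked 63 kept cells as doublets (0.822%), none a member, and these stayed in. Free RNA was not removed. The members and gene lists were chosen with earlier results of these data known. Counts were summed over cells and divided by group totals to CPM in Python 3.11.15. Ratios have exact conditional, levels exact Poisson and shares exact binomial 95% intervals (scipy 1.17.1). In ratios a count of 0 was set to 3 UMIs. A total of 3 UMIs corresponds to 30.8 CPM in Cd3-zero, 18.7 CPM in Cd3-positive and 0.925 CPM in T cells. B cells had *Cd79a* and *Cd79b* sums of 3 or more and MΦs *Csf1r* and *Adgre1* sums of 2 or more, without gate or Cd3 sums above the limits. Shares were also taken after thinning cells to 1500 UMIs, which left 28 Cd3-zero and 47 Cd3-positive members. Of the features, 55341 matched GENCODE vM21 (GRCm38) by symbol. Named are the genes of the lists, with up to 8 by highest CPM and those that went against their list, the 10 highest and 10 lowest ratios of each comparison, V segments seen in at least 5 members, and the gate genes. Receptors, cytokines and V segments with few UMIs were named by their lists and given as counts of cells. Ratios were tested on simulated counts. The alternatives were other gene, gate, Cd3 and UMI minimums, T cells with the same limits, equal weight per library, centred ratios, and leaving out called doublets, each library or, chosen after seeing the data, the *Cd74*-rich members and genes seen in fewer than 5 cells. No p-value was computed, as each condition had 1 library and the groups were defined on the same counts. Some listed genes are not reported here.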

Additional observations from a re-analysis of the deposited data

How the results depend on the processing

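No paired analysis was possible because each condition has 1 library and the library numbers are not matched to the labels. The share of members moved from 1.10% to 0.522% with a gate sum of 5 or more and to 1.87% with a sum of 2 or more, and the Cd3-zero share to 60% (24 of 40) with a sum of 5 or more. For members against T cells, T cells with the same limits gave 531 higher and 308 lower genes, a minimum of 10 UMIs gave 2124 higher, and a minimum of 100 UMIs gave 254 higher and 420 lower. For Cd3-zero against Cd3-positive members, a gate sum of 5 or more gave 50 higher and 12 lower, a minimum of 10 UMIs gave 509 and 412, a minimum of 100 UMIs gave 13 and 8, and leaving out the *Cd74*-rich members gave 50 lower. Leaving out 1 library at a time gave 609–879 higher and 831–989 lower genes for members against T cells, and 43–75 higher and 44–80 lower for the second comparison.

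Of 815 recomputed log2 ratios of named genes, 6 changed sign and 21 came within 2-fold, and a further 99 could not be given because a gene had fewer than 30 UMIs. Against T cells with the same limits, *Lyz2* (2.52) and *Fn1* (2.996) were no longer lower in members, but *Lyz2* had 2 UMIs in members without the *Cd74*-rich ones. The ratio to T cells became −3.93 for *Ccl9* and −1.65 for *Retnla* without the *Cd74*-rich members, and over the libraries left out both were lowest without library 3, at −1.40 (highest 4.004) and −1.74 (highest 4.23). Cells as few as 33 and 47 limit the second comparison to genes with 30 UMIs, and cell-to-cell spread beyond counting error is not in the intervals. The cause of these shifts was not tested.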
